A study of Mus musculus with 9 samples.

Results

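Cholesterol synthesis and LXR target genes were studied as a set of 33 genes, of the 54059 genes in the deposited table of FPKM values, read counts scaled for transcript length and library depth. The set was listed by known function, with earlier results of these data known: enzymes that make cholesterol, regulators of those enzymes, the LXR receptors and genes they switch on, and 3 fatty acid synthesis genes. All 33 symbols were found through the GENCODE M21 annotation, and all 33 passed the filter on low values, which kept 11450 genes with an average FPKM of 1 or more.

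RNA was sequenced from peritoneal macrophages of 8-week-old C57BL/6 mice, in 3 groups of 3 libraries. Each mouse received 1 ml of starch broth into the peritoneum, the cells were washed out 3 days later, and those that adhered were cultured. Per the study's methods, all groups were then stimulated for 4 h with imiquimod (IMQ, 10 µg/ml), which activates the receptor TLR7, so no unstimulated cells were compared here. The comparisons ask how RNA levels in stimulated macrophages differ when the phosphatase SHP2, encoded by *Ptpn11*, is deleted or inhibited. The wild-type group carried no deletion and received no inhibitor. It was the reference for both other groups, so its levels enter both comparisons. The M-Shp2-/- group (genotype SHP2lyz2-/-) lacked SHP2 in cells with *Lyz2*-driven Cre, which cuts in myeloid cells and not only in macrophages. The SHP099 group was of wild-type genotype and was given the allosteric SHP2 inhibitor SHP099 (10 µM) for 2 h before IMQ. Nothing in the labels says whether the 3 libraries of a group came from separate animals, so the p-values measure the spread between these libraries, which may be technical.

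As background, cholesterol is built from acetyl-CoA through mevalonate, squalene and lanosterol. When sterols are scarce in the endoplasmic reticulum, SCAP escorts the SREBP factors to the Golgi, where they are cut free to switch on the synthesis enzymes, and when sterols are plentiful INSIG proteins hold SCAP back. Oxidised sterols also bind the LXR receptors, which pair with RXR and switch on genes for cholesterol export and lipid remodelling; macrophages, which take up membranes and lipoproteins, use both arms to balance their sterol load.

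The libraries carried the RNA of macrophages. All 8 macrophage markers listed (*Adgre1*, *Csf1r*, *Cd68*, *Lyz2*, *Itgam*, *Fcgr1*, *Mertk* and *Cd14*) passed the filter, and *Lyz2* was the most abundant, with 7440.3, 10228 and 7951 in the wild-type libraries, 4863, 4743 and 5407 in the M-Shp2-/- libraries and 9348, 10279.9 and 10715 in the SHP099 libraries (FPKM; replicates 1, 2 and 3, the order used throughout). The M-Shp2-/- libraries were the lowest 3, at a log2 fold change of -0.76 (SE 0.16) against wild-type libraries, which was not called. That group carries the *Lyz2*-driven Cre, and the part of the Cre in its *Lyz2* level was not tested. *Mertk* also lay lower in all M-Shp2-/- than in all wild-type libraries (-0.97, SE 0.27, not called). *Cd68* ran from 1211 to 1739.5 FPKM and *Adgre1* from 172 to 349 FPKM. For *Csf1r* the SHP099 libraries were the highest 3, with 181, 211 and 206 FPKM. It had 58.2, 67.8 and 111 FPKM in the wild-type libraries and 87.4, 71.8 and 176 FPKM in the M-Shp2-/- libraries. Other cells left traces. Of 8 fibroblast and mesothelial markers, 4 passed the filter, led by the collagen gene *Col1a1*, while *Lum* and *Upk3b* stayed below 1 FPKM in every library. The FPKM of those 8 markers summed to 57.0, 274 and 36.7 in the wild-type libraries, to 123, 46.0 and 549 in the M-Shp2-/- libraries and to 335, 127 and 95.2 in the SHP099 libraries. The third M-Shp2-/- library was the highest. The 5 B cell markers, 2 of which passed, summed to 9.90, 16.5 and 47.0, to 34.9, 17.3 and 178 and to 19.7, 13.6 and 27.7 FPKM in the same order, with *Ighm* leading and *Ms4a1* below 1 FPKM in all libraries. The sums of mast cell and endothelial markers, led by *Kit* and *Kdr*, were low but differed between groups. The mast cell sums were 6.10, 4.76 and 6.01, then 2.76, 3.19 and 1.60, then 0.675, 0.564 and 0.970 FPKM in the same order, and the endothelial sums 5.32, 4.19 and 4.56, then 4.39, 4.94 and 1.804, then 1.67, 1.32 and 1.16 FPKM. In both, the SHP099 libraries were the lowest 3, followed by the third M-Shp2-/- library. Of 4 adipocyte markers none passed, and *Adipoq* and *Lep* were at 0 in every library. In bulk RNA, fewer cells of a type and less RNA per cell cannot be told apart.

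The targeted gene was read first, as a check of the labels. *Ptpn11* had 45.8, 44.0 and 39.99 in the wild-type libraries, 18.6, 17.8 and 18.9 in the M-Shp2-/- libraries and 43.0, 42.1 and 39.6 in the SHP099 libraries (FPKM). All 3 M-Shp2-/- libraries lay below the other 6, and the SHP099 libraries overlapped the wild-type libraries, so the transcript was low with deletion and not with the inhibitor. The test was limma on log2(FPKM + 1) over all 11450 genes, and calls were made at adjusted p-values up to 0.05 (Benjamini-Hochberg). *Ptpn11* fell by 1.19 on the log2 scale in M-Shp2-/- against wild-type libraries (SE 0.10, limma adjusted p 0.0168, 0.00186 to 0.196 over the alternatives), to a mean FPKM ratio of 0.425. Without the first or second wild-type library, or the first or second M-Shp2-/- library, it was no longer called, with log2 fold changes of -1.24 to -1.15, nor with replicate number as a block (-1.19 in that fit). In SHP099 against wild-type libraries its log2 fold change was -0.055 (SE 0.086, limma adjusted p 0.729, 0.161 to 0.940 over the alternatives) and it was not called.

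A pair of libraries stood apart in sterol synthesis, and the results are therefore given with and without them. In the third wild-type library, 17 of the 18 synthesis genes lay below both other wild-type libraries, as did 62.8% of all genes tested. In the third M-Shp2-/- library all 18 lay below both others of the group, as did 55.7% of all genes, whereas 2 of 18 did so in the third SHP099 library, against 55.2% of all genes. Set against its own group, the share of all genes was thus similar in these 3 libraries, and the share of synthesis genes was not. Relative to the mean of the other libraries of the group, the median synthesis gene stood at 53.7% (39.2 to 93.8%) in the third wild-type library and at 58.2% (35.2 to 81.1%) in the third M-Shp2-/- library. The medians of all genes there were 86.5% and 91.8%. The third SHP099 library had a median of 105% (79.1 to 125%), with all genes at 93.5%. For 15 of the 18 genes the third wild-type and the third M-Shp2-/- libraries were the lowest 2 of the 9, and the share of all genes was not counted. The third wild-type library was the lowest of the 9 for 14 of the 18. It was also the lowest for 46.9% of all genes, so it lay low beyond the synthesis genes. For the third M-Shp2-/- library these figures were 4 of the 18 and 9.65%.

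**Figure D1:**
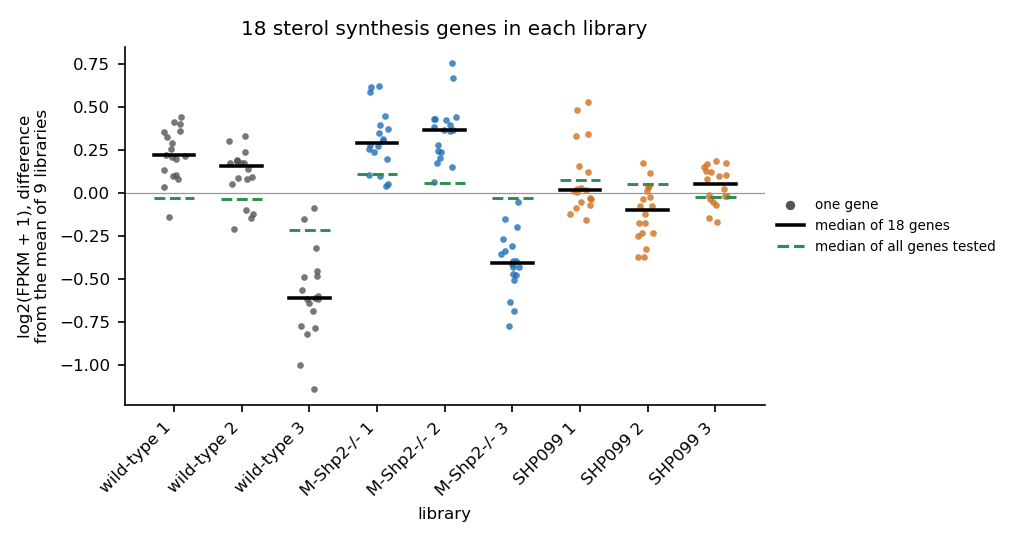
Each point is 1 of 18 sterol synthesis genes in 1 library, as its log2(FPKM + 1) minus its mean over the 9 libraries; the black line is the median of the 18 genes and the green dashed line that of all genes tested. The medians of the third wild-type and the third M-Shp2-/- libraries are -0.61 and -0.40, and those of the other 7 libraries lie between -0.098 and 0.37.

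The third M-Shp2-/- library also differed more widely. In it 710 of 11450 genes (6.20%) lay more than 1 log2 unit from the mean of the other libraries of its group, against 465 genes (4.06%) in the third wild-type library and 83 to 383 genes in the other 7. Its fibroblast and B cell markers, given above, were the highest of the 9 libraries, and their part in its sterol values was not tested. Depths recovered from the FPKM values were 42532334 and 45611056 reads in the third wild-type and the third M-Shp2-/- libraries. The range over all 9 was 39839641 to 50985451, and the part of depth was not tested.

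**Figure D2:**
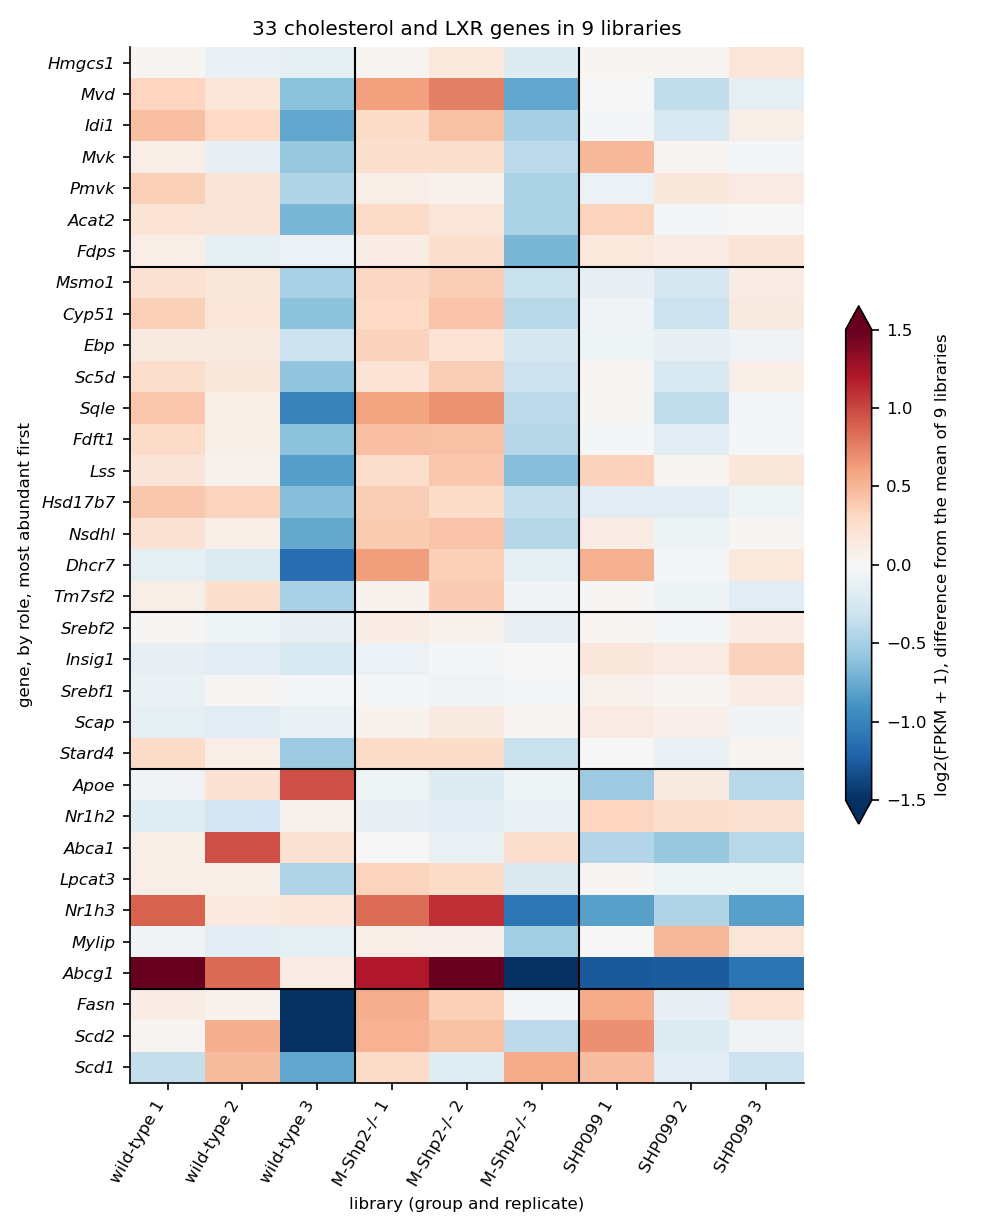
Heat map of the 33 genes (vertical axis, by role, most abundant first) in the 9 libraries (horizontal axis), coloured by log2(FPKM + 1) minus the mean of the gene over the 9 libraries, with colours capped at 1.5 units. Blue columns of synthesis genes mark the third wild-type and the third M-Shp2-/- libraries, and *Abcg1* and *Nr1h3* are blue in the third M-Shp2-/- library and all 3 SHP099 libraries.

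Deletion of SHP2 moved none of the 33 genes past the threshold. In M-Shp2-/- against wild-type libraries limma called 0 of 33, beside 10 of all 11450 genes (0.0873%), and limma voom on recovered reads also called 0 of 33. At an unadjusted p under 0.05 there was 1 gene, *Scap*, beside 10.5% of all genes. The stricter thresholds of the study, adjusted p-values up to 0.005 and absolute log2 fold changes from 1 upward, passed 0 of 33 and 0.00873% of all genes. Groups separated fully for 2 genes that were higher in M-Shp2-/- libraries, *Insig1* and *Scap*, beside 16% of all genes, and for 1 that was lower, *Apoe*, beside 3.07%. Those shares do not exceed the background. Without the third wild-type and the third M-Shp2-/- libraries together, an alternative chosen after seeing the data, limma again called 0 of 33, with 27 above 0 and 8 at an unadjusted p under 0.05, beside 23.8% of all genes.

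Direction depended on scaling. The median log2 fold change of all genes was 0.15 in M-Shp2-/- and 0.13 in SHP099 libraries against wild-type libraries, and median-of-ratios scaling moved these medians to -0.013 and -0.0055. Of the 33 genes, 27 lay above 0 in M-Shp2-/- libraries, but 13 lay above the median of all genes, and 13 lay above 0 after that scaling. Their own median was 0.13. In SHP099 libraries 22 lay above 0 and 14 above the median of all genes, with 13 above 0 after scaling, and a median of 0.053. The number above 0 also rested on single libraries: in M-Shp2-/- libraries it was 12 without the third wild-type library and 30 without the third M-Shp2-/- library, and in SHP099 libraries it was 12 without the third wild-type library.

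Inhibition by SHP099 moved 3 of the 33 genes, *Insig1* upward and *Nr1h3* and *Abcg1* downward. That share lay near the background, in which 6.96% of all genes were called, 4.55% higher and 2.41% lower. The split of all calls was 521 higher and 276 lower, but 172 and 339 after median-of-ratios scaling and 344 and 356 after quantile normalization. Under the thresholds of the study limma called 0 of 33, beside 0.166% of all genes. At an unadjusted p under 0.05 there were 7 members, beside 26.7% of all genes, and limma voom called 2, beside 6.86% of all genes. Groups did not overlap for 7 members that were higher (*Fdps*, *Dhcr7*, *Insig1*, *Srebf1*, *Scap*, *Nr1h2* and *Mylip*), beside 27.9% of all genes, and for 3 that were lower (*Abca1*, *Nr1h3* and *Abcg1*), beside 6.77%. The calls depended on the SHP099 libraries more than on the wild-type libraries. Without any single SHP099 library limma called 0 of 33, while calls among all genes dropped from 797 to 90, 47 and 116. At an unadjusted p under 0.05 there were then 6, 7 and 6 members, beside 17.6, 16.6 and 23.2% of all genes. Without the first wild-type library *Abcg1* and *Nr1h3* were called, beside 2.48% of all genes, and without the second *Abca1*, *Abcg1* and *Nr1h3*, beside 3.48%. Without the third there were 4 calls: *Nr1h2* higher, beside 7.05% of all genes, and *Abcg1*, *Nr1h3* and *Hsd17b7* lower, beside 4.07%. *Hsd17b7* then had a log2 fold change of -0.50 (SE 0.084).

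**Figure D3:**
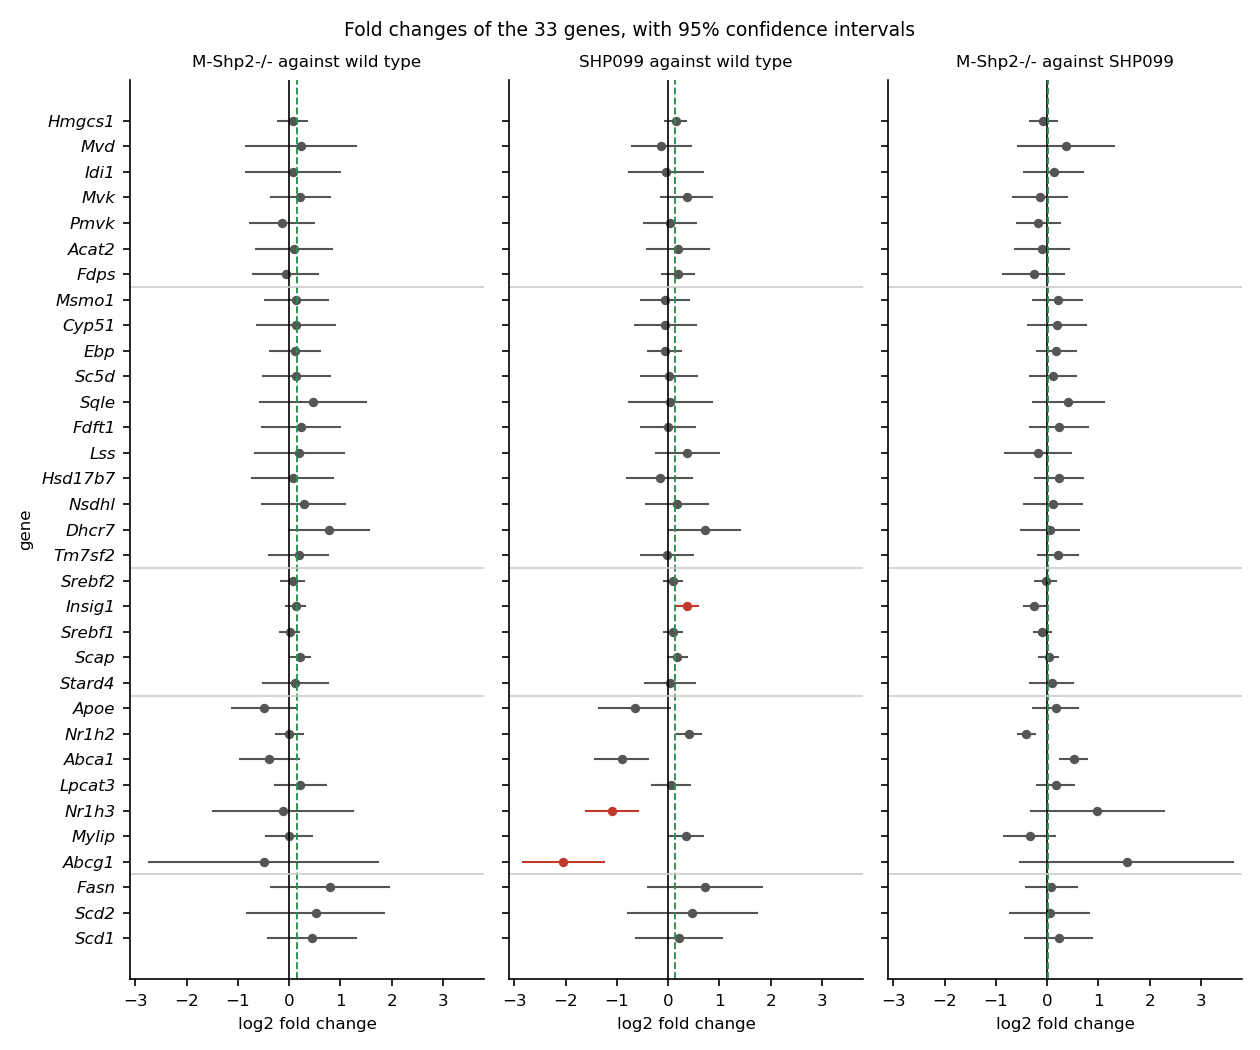
Log2 fold changes of the 33 genes (points) with 95% confidence intervals (lines) from limma on log2(FPKM + 1) in the 3 comparisons; called genes are red, and the green dashed line is the median of all genes tested. Only *Insig1*, *Nr1h3* and *Abcg1* are red, all in SHP099 against wild-type libraries.

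The mevalonate steps, which turn acetyl-CoA into farnesyl pyrophosphate, came first by pathway order. They comprise *Acat2*, *Hmgcs1*, *Mvk*, *Pmvk*, *Mvd*, *Idi1* and *Fdps*. *Hmgcs1*, whose enzyme condenses acetyl units into HMG-CoA, had the highest mean FPKM of the 7. Its level was 43.5, 39.6 and 38.1 in the wild-type libraries, 43.7, 47.3 and 36.9 in the M-Shp2-/- libraries and 43.2, 42.9 and 48.1 in the SHP099 libraries (FPKM), and the groups overlapped. Unlike most synthesis genes it was only slightly lower in the third wild-type and the third M-Shp2-/- libraries, at 91.7% and 81.1% of the mean of the other libraries of the group. Its log2 fold change was 0.070 (SE 0.12) in M-Shp2-/- and 0.14 (SE 0.090) in SHP099 against wild-type libraries, and both turned slightly negative under median-of-ratios scaling. *Mvd*, which removes a carboxyl group to make isopentenyl pyrophosphate, and *Idi1*, which isomerises that product, varied far more. *Mvd* had 48.6, 44.0 and 24.9 in the wild-type libraries, 59.8, 65.8 and 22.1 in the M-Shp2-/- libraries and 38.7, 29.6 and 34.8 in the SHP099 libraries (FPKM). For *Idi1* the third wild-type library stood at 43.3% and the third M-Shp2-/- library at 53.9% of the other libraries of the group. *Mvk* and *Pmvk*, which phosphorylate mevalonate in turn, and *Acat2*, which joins acetyl-CoA units in the cytosol, showed the same dip, at 65.5, 57.5 and 49.7% in the third wild-type library. *Fdps*, the farnesyl pyrophosphate synthase, was low in the third M-Shp2-/- library (42.6%) and not in the third wild-type library (93.8%). None of the 7 was called against wild-type libraries by limma or by voom (0 of 7), and 0 of 7 had an unadjusted p under 0.05. Of all genes limma called 0.0873% in M-Shp2-/- and 6.96% in SHP099 libraries. At an unadjusted p under 0.05 the shares were 10.5% and 26.7%.

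Promoters were compared because the synthesis genes moved together across libraries. RefSeq promoters (build GRCm38.p6, 250 bases before to 50 after the start of the gene) were matched for 26 of the 33 genes, with 35 entries, and *Scd1*, *Scd2*, *Abcg1*, *Sqle*, *Stard4*, *Fdps* and *Fdft1* are named only. The letters CCAAT, searched on both strands, occurred in 37.4% of 32851 promoters and in 20 of the 26 matched members. Among the matched synthesis genes 14 of 15 held it, *Acat2* being the exception, and 41.1% of all 27025 genes did. The sterol regulatory element was searched as TCACNCCAC on both strands, and 1.24% of promoters and 1.44% of all genes held it. Among the matched members *Hmgcs1* alone did. The E-box CACGTG occurred in 7.15% of promoters and 8.09% of all genes. Of the 26 matched members 6 held it: *Abca1*, *Dhcr7*, *Hsd17b7*, *Insig1*, *Sc5d* and *Scap*. The direct repeat bound by LXR and RXR is AGGTCA repeated after 4 bases. With at most 1 mismatch it occurred in 0.25% of promoters, in 0.28% of all genes and in no matched member. A match is a description of letters and not of a bound site. The following 4 promoters are shown on the gene's strand with CCAAT (or its reverse complement) and the TCACNCCAC match in capitals, none of which overlap: *Hmgcs1* (chr13:119690101-119690400, plus strand) for its 4 CCAAT and 1 TCACNCCAC matches, *Idi1* (chr13:8885356-8885655, plus strand) and *Cyp51* (chr5:4104648-4104947, minus strand) as synthesis genes that dipped in the third libraries, and *Insig1* (chr5:28071162-28071461, plus strand) as the regulator called with SHP099.
Hmgcs1: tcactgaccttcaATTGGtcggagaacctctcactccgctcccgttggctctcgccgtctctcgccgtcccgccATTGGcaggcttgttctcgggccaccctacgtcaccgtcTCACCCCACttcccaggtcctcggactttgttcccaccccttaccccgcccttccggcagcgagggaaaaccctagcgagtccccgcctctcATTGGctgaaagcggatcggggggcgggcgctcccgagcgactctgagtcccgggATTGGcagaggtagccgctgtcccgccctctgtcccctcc
Idi1: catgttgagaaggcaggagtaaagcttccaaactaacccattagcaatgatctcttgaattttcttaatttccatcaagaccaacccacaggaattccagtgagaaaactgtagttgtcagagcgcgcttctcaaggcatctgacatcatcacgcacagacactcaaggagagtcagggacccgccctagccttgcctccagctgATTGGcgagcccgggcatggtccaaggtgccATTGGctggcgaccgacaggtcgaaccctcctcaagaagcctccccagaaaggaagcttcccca
Cyp51: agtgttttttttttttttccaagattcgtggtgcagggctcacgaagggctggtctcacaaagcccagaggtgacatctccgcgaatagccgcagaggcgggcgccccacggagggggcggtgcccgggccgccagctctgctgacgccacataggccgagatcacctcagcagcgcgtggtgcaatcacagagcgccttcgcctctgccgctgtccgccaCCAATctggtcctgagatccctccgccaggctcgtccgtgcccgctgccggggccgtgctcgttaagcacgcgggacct
Insig1: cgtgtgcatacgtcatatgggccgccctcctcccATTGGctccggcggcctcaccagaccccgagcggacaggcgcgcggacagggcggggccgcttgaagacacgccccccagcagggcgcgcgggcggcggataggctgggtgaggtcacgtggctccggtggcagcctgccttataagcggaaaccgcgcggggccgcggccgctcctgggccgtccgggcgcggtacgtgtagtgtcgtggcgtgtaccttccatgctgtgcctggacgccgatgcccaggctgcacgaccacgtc
*Hmgcs1*, which nearly kept its level in the third libraries, and *Idi1* and *Cyp51*, which did not, all held CCAAT. As *Hmgcs1* was picked for its matches and the others for their dip, the part of CCAAT in the dip was not tested.

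The squalene and sterol steps comprise *Fdft1*, *Sqle*, *Lss*, *Cyp51*, *Tm7sf2*, *Msmo1*, *Nsdhl*, *Hsd17b7*, *Ebp*, *Sc5d* and *Dhcr7*. *Msmo1*, which oxidises methyl groups of the sterol ring, was the most abundant by mean FPKM. It had 89.2, 86.1 and 54.2 in the wild-type libraries, 95.1, 98.8 and 60.1 in the M-Shp2-/- libraries and 70.1, 63.9 and 82.2 in the SHP099 libraries (FPKM). The third wild-type and the third M-Shp2-/- libraries were its lowest 2, and the SHP099 libraries lay between them and the remaining wild-type and M-Shp2-/- libraries. *Sqle*, the squalene epoxidase, followed the same order with 32.9, 25.9 and 11.7 in the wild-type libraries, 37.3, 39.5 and 18.4 in the M-Shp2-/- libraries and 24.8, 18.6 and 24.1 in the SHP099 libraries (FPKM). *Cyp51*, which demethylates lanosterol, *Fdft1*, which makes squalene, and *Lss*, which closes the ring, stood at 53.5, 55.5 and 48.6% of the other wild-type libraries in the third, and at 57.7, 53.0 and 48.4% in the third M-Shp2-/- library. *Nsdhl* and *Hsd17b7*, which work with MSMO1 in demethylation, the sterol isomerase *Ebp*, the desaturase *Sc5d* and the reductase *Tm7sf2* had 48.2, 46.9, 71.9, 55.5 and 49.9% in the third wild-type library. The dip thus ran through the whole list of 11. *Dhcr7*, which makes the last reduction to cholesterol, had the largest fold changes of the 11 against wild-type libraries with all libraries in the fit, from 4.22, 3.98 and 1.61 in the wild-type libraries, 7.85, 6.38 and 4.18 in the M-Shp2-/- libraries and 7.29, 4.62 and 5.39 in the SHP099 libraries (FPKM). All 3 SHP099 libraries lay above all 3 wild-type libraries, while 1 M-Shp2-/- library overlapped them. Its log2 fold change was 0.77 (SE 0.33, limma adjusted p 0.478, 0.126 to 0.890 over the alternatives) in M-Shp2-/- libraries. In SHP099 libraries it was 0.71 (SE 0.29, limma adjusted p 0.178, 0.126 to 0.435 over the alternatives). Neither was called, and both rest partly on the third wild-type library: without it they were 0.45 and 0.39, and in SHP099 libraries *Hsd17b7*, at -0.50, was then larger in size. The medians of the 11 log2 fold changes were 0.18 in M-Shp2-/- and 0.0031 in SHP099 libraries, against 0.15 and 0.13 for all genes.

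The regulators did not share the dip, apart from the sterol carrier *Stard4*, which stood at 58.4% and 64.2% in the third wild-type and the third M-Shp2-/- libraries. *Srebf2*, which encodes the SREBP factor that favours cholesterol genes, had 137, 130.2 and 125 in the wild-type libraries, 147, 141 and 125 in the M-Shp2-/- libraries and 140.3, 134 and 147 in the SHP099 libraries (FPKM). *Srebf1*, the factor that favours fatty acid genes, ranged from 56.6 to 66.0 FPKM over the 9 libraries. These transcripts were steady, and the cut SREBP proteins were not measured. *Scap*, the escort of SREBP, had 41.0, 40.1 and 42.1 in the wild-type libraries, 47.0, 49.8 and 46.3 in the M-Shp2-/- libraries and 49.0, 47.4 and 43.9 in the SHP099 libraries (FPKM). All M-Shp2-/- and SHP099 libraries lay above all wild-type libraries, by 0.21 (SE 0.083, limma adjusted p 0.465, 0.153 to 0.931 over the alternatives) and 0.18 (SE 0.079, limma adjusted p 0.195, 0.146 to 0.885 over the alternatives) on the log2 scale, and neither was called. Under median-of-ratios scaling these log2 fold changes were 0.035 and 0.033.

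*Insig1* (ENSMUSG00000045294, chr5:28071363-28078662, plus strand), which holds SCAP in the endoplasmic reticulum and is itself a target of SREBP, was the member called upward. Its FPKM was 110.3, 108 and 102 in the wild-type libraries, 113, 118 and 119.7 in the M-Shp2-/- libraries and 135, 130.2 and 153 in the SHP099 libraries. Each SHP099 library was above all 6 others, and the M-Shp2-/- libraries lay just above the wild-type libraries. *Insig1* rose by 0.38 on the log2 scale with SHP099 (SE 0.086, 95% confidence interval 0.17 to 0.58, limma adjusted p 0.0479, 0.0321 to 0.309 over the alternatives), or 0.25 relative to the median of all genes. The call was a narrow one. It held in 4 of 17 alternatives (both other pseudocounts, a minimum mean FPKM of 5, and all 9 libraries in one fit). It was lost without any single library of the 6, with log2 fold changes of 0.31 to 0.42, under median-of-ratios scaling, with 0.23, and with no filter, quantile normalization, eBayes without the trend, voom, the fibroblast term, and replicate number as a block (0.38 in that fit). The sign was positive under all 17 alternatives. In M-Shp2-/- libraries the log2 fold change was 0.13 (SE 0.079), which became -0.051 under median-of-ratios scaling.

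In SHP099 against wild-type libraries the 3 largest fold changes of the 33 genes lay in the LXR arm. *Abcg1* (ENSMUSG00000024030, chr17:31057675-31117988, plus strand) encodes a transporter that passes cholesterol to HDL and is a direct LXR target. Its FPKM was 17.0, 9.87 and 5.57 in the wild-type libraries, 12.9, 19.0 and 0.645 in the M-Shp2-/- libraries and 1.52, 1.55 and 1.84 in the SHP099 libraries. The 3 SHP099 libraries and the third M-Shp2-/- library lay below 2 FPKM, and the other 5 libraries at 5.57 FPKM or more. *Abcg1* fell by 2.05 on the log2 scale with SHP099 (SE 0.34, 95% confidence interval -2.84 to -1.25, limma adjusted p 0.0224, 0.00710 to 0.157 over the alternatives), or -2.17 relative to the median of all genes, and the SHP099 mean was 0.151 of the wild-type mean. The added 1 in log2(FPKM + 1) shrinks fold changes of low genes. The sign held under all 17 alternatives, with log2 fold changes of -2.59 to -1.19, and the call was lost without any single SHP099 library, with no filter on low values, and with all 9 libraries in one fit. With a fibroblast marker term in the fit, chosen after seeing the data, it was -2.07 and was called. In M-Shp2-/- against wild-type libraries the log2 fold change was -0.50 (SE 0.93), and without the third M-Shp2-/- library it was 0.62 (SE 0.42); neither was called.

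*Nr1h3* (ENSMUSG00000002108, chr2:91184061-91202834, minus strand), which encodes LXR alpha, the LXR form enriched in macrophages and liver, also had its lowest group mean in the SHP099 libraries. Its FPKM was 74.0, 43.7 and 45.1 in the wild-type libraries, 71.4, 85.9 and 18.2 in the M-Shp2-/- libraries and 22.1, 28.7 and 22.0 in the SHP099 libraries. Again the third M-Shp2-/- library sat with the SHP099 libraries, below all wild-type libraries. *Nr1h3* fell by 1.10 on the log2 scale with SHP099 (SE 0.22, 95% confidence interval -1.61 to -0.59, limma adjusted p 0.0331, 0.0242 to 0.211 over the alternatives), or -1.23 relative to the median of all genes. Over the 17 alternatives the log2 fold change was -1.25 to -0.86, and the call was lost without any single SHP099 library, with no filter on low values, with all 9 libraries in one fit and with replicate number as a block (-1.10 in that fit). In M-Shp2-/- libraries it was -0.12 (SE 0.57), and 0.56 (SE 0.25) without the third M-Shp2-/- library, not called in either.

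*Nr1h2*, which encodes LXR beta, the widely expressed form, went the other way. Its FPKM was 126, 116 and 148 in the wild-type libraries, 131, 127 and 132 in the M-Shp2-/- libraries and 179, 171 and 167 in the SHP099 libraries. All SHP099 libraries were above all others. The log2 fold change was 0.41 (SE 0.10, limma adjusted p 0.0567, 0.0155 to 0.383 over the alternatives), just short of the threshold. It was called in 3 of 17 alternatives: without the third wild-type library, at 0.51 (SE 0.072), with a minimum mean FPKM of 5, and with all 9 libraries in one fit. Under median-of-ratios scaling it was 0.26, not called. *Abca1*, an LXR target that loads cholesterol onto apolipoproteins, had 61.8, 115 and 68.5 in the wild-type libraries, 57.7, 53.9 and 69.6 in the M-Shp2-/- libraries and 42.8, 38.7 and 43.4 in the SHP099 libraries (FPKM). All SHP099 libraries lay below all others. Its log2 fold change of -0.90 (SE 0.22, limma adjusted p 0.0544, 0.0168 to 0.204 over the alternatives) missed the threshold. It was called in 5 of 17 alternatives: without the second wild-type library, the highest of the 9 (at -0.63), with a minimum mean FPKM of 5, under median-of-ratios scaling, with all 9 libraries in one fit, and with the fibroblast term.

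The other LXR targets showed no common direction. *Apoe*, the apolipoprotein that carries cholesterol away, was the most abundant member, with 5369, 6437 and 10833 in the wild-type libraries, 5301, 4870.1 and 5309 in the M-Shp2-/- libraries and 3804, 6103 and 4174 in the SHP099 libraries (FPKM). The third wild-type library was the highest of the 9. Its log2 fold changes of -0.48 (SE 0.26) and -0.65 (SE 0.29) in M-Shp2-/- and SHP099 libraries were not called, and without that library they were -0.19 and -0.36. *Mylip*, a ubiquitin ligase that lowers lipoprotein receptors, had 9.81, 8.995 and 9.15 in the wild-type libraries, 10.9, 10.8 and 6.85 in the M-Shp2-/- libraries and 10.2, 14.8 and 11.7 in the SHP099 libraries (FPKM). Its SHP099 libraries lay above the wild-type libraries, with a log2 fold change of 0.35 (SE 0.14, limma adjusted p 0.177, 0.159 to 0.489 over the alternatives), and 0.21 without the second SHP099 library. *Lpcat3*, which remodels phospholipids, dipped with the synthesis genes, to 67.8% and 69.1% in the third wild-type and the third M-Shp2-/- libraries. The medians of the 7 log2 fold changes were -0.12 in M-Shp2-/- and -0.65 in SHP099 libraries.

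**Figure D4:**
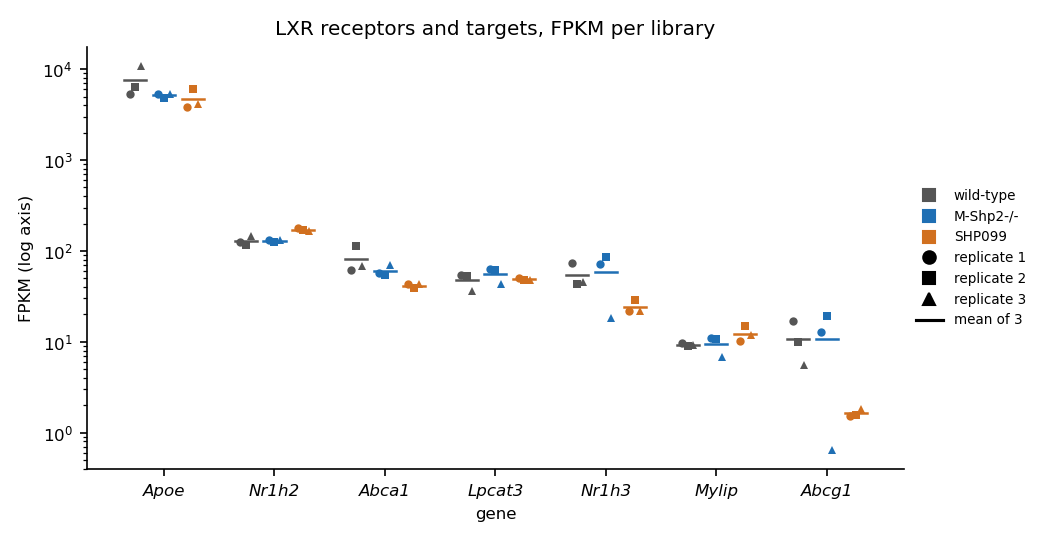
FPKM (log axis) of the 7 LXR receptors and targets in each library; colours mark the groups, shapes the replicates, and lines the means of 3. The SHP099 libraries are the lowest group for *Abca1*, and for *Nr1h3* and *Abcg1* the third M-Shp2-/- library (blue triangle) lies below them.

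Fatty acid synthesis was represented by *Fasn*, the fatty acid synthase, and by *Scd1* and *Scd2*, desaturases that place the first double bond. *Fasn* had 23.7, 22.8 and 6.12 in the wild-type libraries, 32.3, 28.2 and 21.6 in the M-Shp2-/- libraries and 32.7, 19.9 and 25.2 in the SHP099 libraries (FPKM). The third wild-type library was far below the other 8. The log2 fold changes of 0.80 (SE 0.48) in M-Shp2-/- and 0.72 (SE 0.47) in SHP099 libraries were not called, and without that library they were 0.21 and 0.13. *Scd2* stood at 16.9% and 49.0% of the other libraries of the group in the third wild-type and the third M-Shp2-/- libraries, and *Scd1* at 30.7% and 161%. *Scd1* was thus high in the M-Shp2-/- library with the most fibroblast marker RNA, and the part of those cells was not tested.

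Deletion and inhibition were also set against each other. With all 6 libraries limma called 0 of 33, beside 0.0699% of all genes, and limma voom also called 0. At an unadjusted p under 0.05 there were 3 members, beside 12.6% of all genes, and the study's thresholds passed 0 of 33 and 0% of all genes. Groups did not overlap for 1 member that was higher in M-Shp2-/- libraries, *Abca1*, beside 7.9% of all genes, and for 3 that were lower, *Insig1*, *Srebf1* and *Nr1h2*, beside 9.76%. The third M-Shp2-/- library decided this outcome. Without it limma called 14 of 33, of which 13 were higher in M-Shp2-/- libraries, beside 12% of all genes, and 1 was lower, beside 7.89%. The higher ones included 8 synthesis genes: *Mvd* (0.86 on the log2 scale), *Sqle* (0.76), *Fdft1* (0.52), *Hsd17b7* (0.46), *Msmo1* (0.43), *Idi1* (0.41), *Nsdhl* (0.39) and *Ebp* (0.36). The sterol carrier *Stard4* (0.29) was higher as well. From the LXR arm *Abcg1* (2.66, SE 0.18), *Nr1h3* (1.66, SE 0.14), *Abca1* (0.41) and *Lpcat3* (0.34) were higher, and *Nr1h2* (-0.41) was lower. The same log2 fold changes with all 6 libraries were 1.55 (SE 0.87) for *Abcg1* and 0.98 (SE 0.54) for *Nr1h3*. Leaving out each library had been planned, but this one was singled out after its values were seen, and the 14 calls describe the remaining 5 libraries.

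Further genes of both pathways were read from 2 lists. Of 25 listed sterol and SREBP genes 23 passed the filter, and of 31 listed LXR and cholesterol handling genes 26 did. In M-Shp2-/- against wild-type libraries limma called 0 of 23 and 0 of 26, beside 0.0873% of all genes, with 3 and 7 at an unadjusted p under 0.05, beside 10.5%, and 0 and 0 by limma voom. In SHP099 libraries 1 of 23 was called, higher, and 10 of 26, of which 4 were higher and 6 lower, beside 4.55% of all genes higher and 2.41% lower. At an unadjusted p under 0.05 there were 6 of 23 and 19 of 26, beside 26.7% of all genes. The M-Shp2-/- and wild-type libraries did not overlap for 7 of 23 and 8 of 26 that were higher, beside 16% of all genes. They did not overlap for 1 of 23 and 3 of 26 that were lower, beside 3.07%. Both lists were chosen with earlier results known, so these counts describe them and no more. Without single SHP099 libraries the calls on the second list were 0, 0 and 2, beside 90, 47 and 116 of all genes. Without the first, the second or the third wild-type library they were 3, 3 and 11, beside 284, 399 and 1273 of all genes. Between M-Shp2-/- and SHP099 libraries limma called 0 of 23 and 0 of 26, beside 0.0699% of all genes, with 3 and 11 at an unadjusted p under 0.05, beside 12.6%. By limma voom 0 and 1 (*Cd36*) were called, beside 0.123% of all genes. Without the third M-Shp2-/- library 3 of 23 and 14 of 26 were called, beside 19.9% of all genes.

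The 5 upward calls on these lists were *Lipa*, *Nceh1*, *Npc1*, *Rxrb* and *Acss2*. *Lipa*, the lysosomal lipase that frees cholesterol from esters, had 205, 126 and 149.7 in the wild-type libraries, 264, 296 and 257 in the M-Shp2-/- libraries and 272, 301 and 257 in the SHP099 libraries (FPKM). It rose by 0.81 on the log2 scale with SHP099 (SE 0.17), and the M-Shp2-/- libraries also lay above all wild-type libraries (0.79, SE 0.18, not called). *Nceh1*, which frees cholesterol from stored esters, had 37.3, 35.0 and 35.1 in the wild-type libraries, 57.4, 65.3 and 53.2 in the M-Shp2-/- libraries and 55.1, 57.7 and 46.5 in the SHP099 libraries (FPKM). It rose by 0.55 with SHP099 (SE 0.10), and the M-Shp2-/- libraries were again above all wild-type libraries (0.69, SE 0.10, not called). *Npc1* and *Npc2* pass cholesterol out of the lysosome, and they moved in opposite directions. *Npc1* rose by 0.50 (SE 0.091), from 86.6 ± 3.78 to 123 ± 11.8 FPKM (mean ± SD, n = 3), and *Npc2* fell by 0.48 (SE 0.10), from 639.7 ± 58.2 to 459 ± 33.6 FPKM. The M-Shp2-/- means were 115 ± 12.1 and 519 ± 87.8 FPKM, with every library above the wild-type libraries for *Npc1* (0.40, SE 0.10) and below them for *Npc2* (-0.31, SE 0.15), neither called. *Rxrb*, an RXR partner of the LXR receptors, rose by 0.49 (SE 0.084), from 25.2 ± 0.707 to 35.8 ± 2.21 FPKM, and the M-Shp2-/- libraries lay above the wild-type libraries, at 29.9 ± 2.44 FPKM (0.23, SE 0.10, not called). From the sterol list *Acss2*, which makes acetyl-CoA from acetate, rose by 1.06 (SE 0.17), with 1.55, 1.02 and 0.967 in the wild-type libraries, 2.33, 2.28 and 1.36 in the M-Shp2-/- libraries and 4.15, 3.03 and 3.42 in the SHP099 libraries (FPKM). The M-Shp2-/- libraries overlapped the wild-type libraries. Under median-of-ratios scaling *Acss2* stayed called, at 0.97. The calls of *Lipa* (0.66), *Nceh1* (0.40), *Npc1* (0.35) and *Rxrb* (0.34) were lost there with smaller log2 fold changes, and that of *Npc2* (-0.63) was lost with a larger fall.

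The 6 downward calls were *Npc2*, *Lpl*, *Ch25h*, *Msr1*, *Cd36* and *Gpnmb*. *Lpl*, a lipase that releases fatty acids from lipoproteins and an LXR target, had 149, 79.2 and 78.8 in the wild-type libraries, 130.1, 162 and 31.7 in the M-Shp2-/- libraries and 23.9, 38.9 and 33.7 in the SHP099 libraries (FPKM). As with *Abcg1*, the third M-Shp2-/- library sat among the SHP099 libraries. *Lpl* fell by 1.60 on the log2 scale with SHP099 (SE 0.28). *Ch25h*, which makes an oxysterol that binds LXR and restrains SREBP, had 9.60, 13.7 and 5.504 in the wild-type libraries, 5.63, 3.69 and 7.15 in the M-Shp2-/- libraries and 3.39, 1.32 and 2.84 in the SHP099 libraries (FPKM). It fell by 1.57 (SE 0.35), and all SHP099 libraries lay below all others. The scavenger receptors *Msr1* and *Cd36* take up modified lipoproteins. *Msr1* fell by 1.11 (SE 0.14), from 328 ± 33.6 to 153 ± 25.7 FPKM, and *Cd36* by 0.79 (SE 0.18), from 250.0 ± 61.9 to 142 ± 15.4 FPKM. The M-Shp2-/- means were 229.8 ± 39.2 and 276 ± 20.2 FPKM, below the wild-type libraries in every library for *Msr1* (-0.52, SE 0.15, not called) and overlapping them for *Cd36*. *Gpnmb*, a membrane glycoprotein of lipid-laden macrophages, fell by 1.05 (SE 0.17), with 8647, 7661 and 5916 in the wild-type libraries, 9943, 11892 and 4023 in the M-Shp2-/- libraries and 4035, 3371 and 3269.6 in the SHP099 libraries (FPKM). The third M-Shp2-/- library lay close to the SHP099 libraries. The last 5 stayed called under median-of-ratios scaling, and all but *Msr1* lost the call without any single SHP099 library; *Msr1* kept it without the third. Their log2 fold changes without single libraries stayed at -1.75 to -1.30 for *Lpl*, -1.88 to -1.29 for *Ch25h*, -1.23 to -0.98 for *Msr1*, -0.94 to -0.60 for *Cd36* and -1.20 to -0.93 for *Gpnmb*. Adjusted p-values of the 11 called list genes were 0.0129 to 0.0454 (limma), and over their alternatives 0.0111 to 0.175. Of 16 or 17 alternatives each, the calls held in 7 (*Npc2*) to 14 (*Msr1*), and none held with no filter on low values. With replicate number as a block *Lipa*, *Npc1*, *Lpl* and *Ch25h* lost the call.

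**Figure D5:**
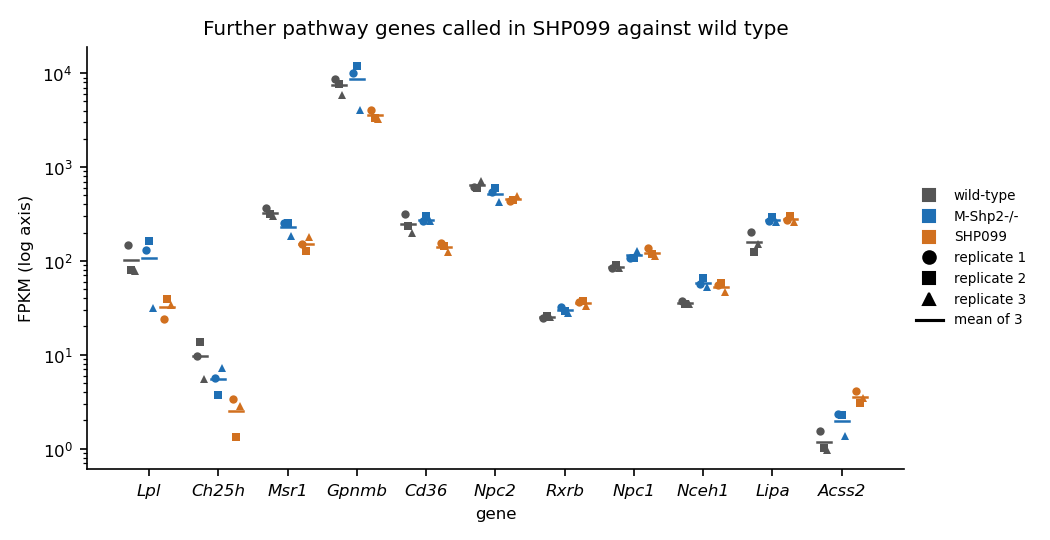
FPKM (log axis) in each library for the 11 list genes called in SHP099 against wild-type libraries, ordered by log2 fold change from *Lpl* (-1.60) to *Acss2* (1.06); colours mark the groups, shapes the replicates, and lines the means of 3. The third M-Shp2-/- library (blue triangle) lies near the SHP099 libraries for *Lpl* and *Gpnmb*.

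Some levels may include reads of a neighbour, because the strand setting of the counting is not given in the sources used here. Exons overlap a gene on the opposite strand for *Hmgcs1*, *Idi1*, *Cyp51*, *Fdft1*, *Lss*, *Srebf1*, *Scap*, *Lpcat3*, *Acss2*, *Npc1* and *Ch25h*, and on the same strand for *Fdps*, *Tm7sf2*, *Nr1h3*, *Srebf1* and *Scd2*. *Fdft1* overlaps *Ctsb*, *Tm7sf2* overlaps *Vps51*, *Lpcat3* overlaps *Emg1* and *Nr1h3* overlaps *Gm13783*, so their levels are uncertain. *Abcg1*, *Abca1*, *Insig1* and *Nr1h2* have no such overlap in the annotation. No exact permutation test of 3 against 3 libraries can give a two-sided p below 0.1, and none was used.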

How the data were processed

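The authors deposited FPKM values per gene for 9 libraries. Per the submitters' processing notes, CASAVA 1.8, HISAT2 2.0.4 and HTSeq 0.9.1 were used; build, annotation, strand setting and the step to FPKM are not given in the sources used here. A second deposited table, of gene spans, was not used. Groups and replicate numbers came from the labels. The IMQ and SHP099 treatments came from the study's methods. Gene IDs were matched to symbols in GENCODE M21, which lacked 439 of 54059 IDs.

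From the FPKM values, log2(FPKM + 1) was computed for the 11450 genes with a mean of at least 1. Each pair of groups was fitted in limma 3.58.1 (R 4.3.3) with lmFit and eBayes with a trend, two-sided, with Benjamini-Hochberg adjustment over all genes and calls at 0.05. Ranges of adjusted p over the alternatives are from the same tests. Reads for limma voom were recovered from the FPKM values and mean transcript lengths: 96.3 to 96.7% of values up to 50 reads fell within 0.05 of a whole number, where 10% would by chance. Depth recovered this way was 39839641 to 50985451 reads a library. The fits were tested on simulated data. Figures were drawn with matplotlib 3.10.9; pandas 2.3.3 and numpy 2.4.6 ran under Python 3.11.15.

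The members and lists were chosen with earlier results of these data known. Values in every library are given for called members, for the members with the smallest unadjusted p against wild type (up to 8 in all), and for the most abundant member of each role; list genes were named when called, and *Ch25h* in any case. *Sqle* and *Mvd* were added after their values were seen, as examples of the third libraries, and so were members described by the level in those libraries. Alternatives covered the pseudocount, filter, scaling, variance model, samples in the fit, replicate block, voom and leaving out each library; the fibroblast term, leaving out the third wild-type and the third M-Shp2-/- libraries, and the alternatives for the list genes were chosen after seeing the data.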

Additional observations from a re-analysis of the deposited data

How the results depend on the processing

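The cause of the changes given here was not tested. In M-Shp2-/- against wild-type libraries calls among all genes (10) became 6 by eBayes without the trend and 1 to 8 without single libraries. No member was called by limma under any alternative, 0 by limma voom, with 0 to 8 at an unadjusted p under 0.05 (4.10 to 23.8% of all genes), and the number above 0 (27) became 13 under median-of-ratios scaling and 19 under quantile normalization. Among the 13 members picked for values in every library by the rule fixed beforehand, log2 fold changes that changed sign under median-of-ratios scaling were -0.051 for *Insig1*, -0.17 for *Nr1h2*, -0.16 for *Mylip*, -0.10 for *Hmgcs1*, -0.032 for *Msmo1* and -0.11 for *Srebf2*. Under quantile normalization they were -0.024 for *Nr1h2*, -0.18 for *Mylip* and -0.013 for *Hmgcs1*, and by limma voom -0.0084 for *Mylip*. With the fibroblast term *Nr1h3* was 0.19, and without the third wild-type and the third M-Shp2-/- libraries *Nr1h3* was 0.45 and *Abcg1* 0.25. Leaving out each library gave -1.19 to 0.62 for *Abcg1*, -0.53 to 0.56 for *Nr1h3*, -0.071 to 0.10 for *Nr1h2*, -0.10 to 0.20 for *Mylip*, -0.084 to 0.37 for *Msmo1*, -0.0070 to 0.17 for *Hmgcs1* and -1.24 to -1.15 for *Ptpn11*.

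In SHP099 against wild-type libraries the 3 member calls became 0 under the thresholds of the study and with no filter. They became 0 to 4 without single libraries. With a minimum mean FPKM of 5 there were 5 of 30, beside 10.7% of all genes. The calls on the LXR list (10) became 0 with no filter, 5 under median-of-ratios scaling, 6 by eBayes without the trend and 7 with replicate number as a block. Without single libraries they became 0 to 11. Those on the sterol list (1) became 0 with no filter and 0 to 1 without single libraries. Calls among all genes dropped from 797 to 74 with no filter and to 511 under median-of-ratios scaling. *Hmgcs1* was -0.0029 and *Srebf2* -0.049 under median-of-ratios scaling, and *Msmo1* -0.29 to 0.068 without single libraries. In M-Shp2-/- against SHP099 libraries 0 to 14 members, 0 to 14 LXR list genes and 0 to 3 sterol list genes were called without single libraries; the LXR list had 1 call with a minimum mean FPKM of 5, 1 under median-of-ratios scaling and 1 by limma voom, and 0 otherwise with all libraries. Calls among all genes (8) became 17 with a minimum mean FPKM of 5, 14 by voom, 3 with no filter or all 9 libraries in one fit, 2277 without the third M-Shp2-/- library and 0 to 2 without any other. *Dhcr7* was -0.0080 under quantile normalization. Without single libraries *Dhcr7* was -0.11 to 0.27, *Fasn* -0.086 to 0.26, *Scap* -0.016 to 0.062, *Srebf2* -0.080 to 0.037, *Hmgcs1* -0.15 to 0.024 and *Ptpn11* -1.17 to -1.11.

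Replicate numbers did not pair the libraries throughout. Over 11450 genes, deviations from the group mean correlated at -0.43 to 0.49 between same-numbered libraries of 2 groups. Best matches shared a number for the first M-Shp2-/- with the first wild-type library (0.49) and the third SHP099 with the third wild-type library (0.45). So did the second M-Shp2-/- with the second SHP099 library (0.18). Elsewhere another number matched best, and a batch shared by some same-numbered libraries was not tested. With replicate number as a block, 0, 1 and 0 members were called (M-Shp2-/- and SHP099 against wild-type, then M-Shp2-/- against SHP099 libraries), with 2, 591 and 0 calls among all genes, where 10, 797 and 8 were called without it. *Ptpn11* was -1.19 and -1.13 in the block fits of the M-Shp2-/- comparisons and not called. The limits are 3 libraries a group, FPKM in place of counts, and 2 libraries standing apart; their part in the number of calls was not tested.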

Other observations

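Some genes outside the 33 also put the third M-Shp2-/- library near the SHP099 libraries; they were picked after their values were seen. *Csf1r* had 58.2, 67.8 and 111 in the wild-type libraries, 87.4, 71.8 and 176 in the M-Shp2-/- libraries and 181, 211 and 206 in the SHP099 libraries (FPKM). *Rora*, a nuclear receptor, had 11.8, 16.8 and 21.1 in the wild-type libraries, 10.5, 10.7 and 31.4 in the M-Shp2-/- libraries and 26.2, 26.1 and 28.8 in the SHP099 libraries (FPKM). *Pparg*, another nuclear receptor, had 10.3, 3.997 and 6.24 in the wild-type libraries, 11.9, 14.8 and 2.89 in the M-Shp2-/- libraries and 3.28, 3.89 and 2.64 in the SHP099 libraries (FPKM). Eosinophil markers summed to 0.395, 0.383 and 0.930 FPKM in the wild-type libraries, to 0.727, 0.537 and 0.280 FPKM in the M-Shp2-/- libraries and to 0.0368, 0.0205 and 0.0186 FPKM in the SHP099 libraries, which were the lowest 3. T cell markers summed to 0.721, 1.78 and 5.34 FPKM, to 0.501, 0.307 and 2.70 FPKM and to 3.68, 3.59 and 2.81 FPKM in the same order, and the wild-type libraries overlapped both other groups. The 4 erythroid markers summed to at most 1.53 FPKM in a library and the 3 markers of large resident peritoneal macrophages to at most 6.59 FPKM. The 5 neutrophil markers summed to 35.2 to 96.6 FPKM, nearly all of it *S100a8*, and *Ly6g* was at 0 in 7 of the libraries. *Xist* was present in all 9 libraries, at 91.7 to 159.8 FPKM.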
